A study of Mus musculus with 18 samples.

Results

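The baseline miRNA landscape described here is that of femoral condyle cartilage from uninjured (naïve) mice. Its members were the mature microRNAs (miRNAs) with at least 10 counts in each of the 6 naïve small RNA libraries, which held for 320 of the 1412 mature miRNAs in the table. The mice were 12-week-old males of the C57Bl/6J strain (C57bl6 in the labels), received no load, and are labelled as naïve at day 7. In the rest of the series the anterior cruciate ligament (ACL) of the right knee was ruptured by a mechanical load in mice of the same strain. Cartilage was taken at day 1 or day 7 from the injured right knees and from the uninjured contralateral left knees, with 3 libraries for each of these 4 groups. Cartilage caps were lifted off the bone beneath them, and those of several mice were pooled for each library. Per the study's scheme 6 naïve mice were used and left and right knees were pooled apart, whereas the design text deposited with the series speaks of 4 mice per treatment. With pools of several mice, 6 libraries from 6 mice must share mice under the study's scheme. The labels do not say which do, so n = 6 counts libraries and not independent mice. The labels call the tissue cartilage and the cell type chondrocyte.

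miRNAs are short RNAs cut from hairpin precursors, and each arm of a hairpin (5p or 3p) can give a mature strand. One strand is usually kept by an Argonaute protein, and it recognises mRNAs through its seed, the bases near its 5′ end, so that miRNAs with one seed form a family with overlapping targets. In cartilage, miR-140 is the best known tissue-restricted miRNA and is needed for normal skeletal growth. Other abundant miRNAs of a dissected tissue can come from any of the cell types it holds.

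The sequences below belong to the families that took most of the counts. They are RefSeq mature sequences on GRCm38.p6, written 5′ to 3′ with the seed (bases 2 to 8) in capitals, and 275 of the 320 members had such a sequence. The let-7 guide strands are shown because they made the family with the largest share, together with let-7j, which carries another seed.
let-7i-5p: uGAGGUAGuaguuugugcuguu
let-7f-5p: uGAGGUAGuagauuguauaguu
let-7c-5p: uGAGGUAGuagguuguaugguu
let-7g-5p: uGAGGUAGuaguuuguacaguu
let-7j: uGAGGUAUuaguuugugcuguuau
The leading strands of 3 further large families and of miR-199 are shown with a relative that shares the seed and was far less abundant, or, for miR-199, had the identical sequence.
miR-148a-3p: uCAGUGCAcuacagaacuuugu
miR-148b-3p: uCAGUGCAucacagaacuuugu
miR-26a-5p: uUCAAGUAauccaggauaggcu
miR-26b-5p: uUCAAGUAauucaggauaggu
miR-99a-5p: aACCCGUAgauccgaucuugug
miR-100-5p: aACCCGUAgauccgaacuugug
miR-199a-3p: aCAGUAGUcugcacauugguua
miR-199b-3p: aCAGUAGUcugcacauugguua
miR-126a-3p, the endothelial miRNA, was the only member with its seed among those with a sequence.
miR-126a-3p: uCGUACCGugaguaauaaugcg

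A handful of miRNAs made up most of the naïve libraries. The 10 most abundant miRNAs together held 59.98% ± 5.44 (SD, n = 6) of the counts, from 53.9% in replicate 5 to 67.1% in replicate 6. Between 5 and 9 miRNAs sufficed for 50% of a library's counts, and between 45 and 58 sufficed for 90%. The effective number of miRNAs (the exponential of the Shannon entropy of the shares, which is the number of equally abundant miRNAs that would be as diverse) was 37.2 ± 7.26 (SD, n = 6), from 28.1 in replicate 6 to 46.2 in replicate 5. The distribution had a long tail. With miRNAs of identical counts taken as 1, the members came to 314 miRNAs, of which 19 held at least 1% of the counts on average and 142 held under 0.01%. All members together held between 99.86% and 99.91% of a library.

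**Figure D1:**
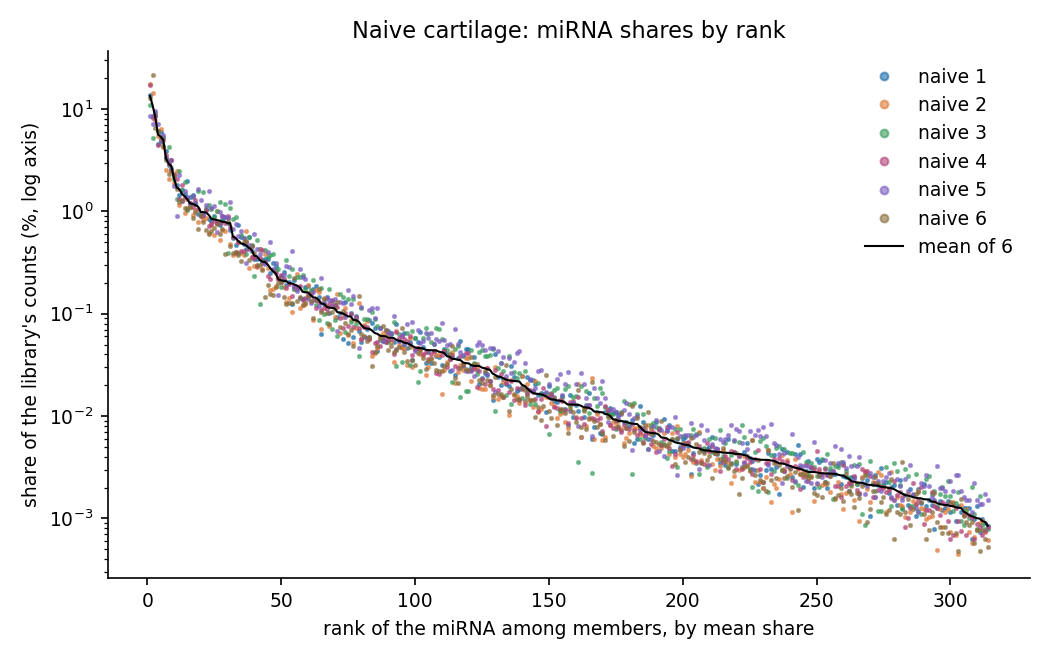
Share of each naïve library's counts (percent, log axis) against the rank of the miRNA by its mean share, for the 314 members counted once where counts are identical. Each coloured point is 1 library and the line is the mean of 6. The curve falls steeply over the first 10 miRNAs, which hold 59.98% of the counts, and goes on into a long tail.

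Total counts ran from 864123 in naïve replicate 5 to 2450093 in replicate 2, with a mean of 1698267 ± 572651 (SD, n = 6), and between 663 and 765 miRNAs had a count in a library. No 2 of the 6 libraries matched within counting noise (chi-square divided by its degrees of freedom, across members, ran in 15 pairs from 65.8 to 798), so none was taken as a second deposit of another, which does not show that they came from separate mice. Spearman's rho between them ran from 0.952 to 0.990, as a description across miRNAs. Counts rank reads, and how efficiently each sequence was ligated and amplified was not measured.

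miR-1a-3p, a miRNA of heart and skeletal muscle, had the highest mean share. It took 13.6, 17.6, 11.1, 17.3, 8.61 and 12.8% of the counts in naïve replicates 1 to 6, with a mean of 13.5% ± 3.50 (SD, n = 6), and it ranked first or second in every library. Its lowest share was in replicate 5, where miR-26a-5p led, and in replicate 6 miR-148a-3p led. miR-148a-3p, which represses the DNA methyltransferase Dnmt1, followed at 10.9% ± 6.14 (SD, n = 6). Its shares were 8.61, 14.5, 5.25, 8.27, 7.12 and 21.7% in replicates 1 to 6, so that replicates 2 and 6 stood well above the other 4. Its gene Mir148a lies between genes on chromosome 6 (51269812 to 51269910).

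miR-26a-5p, a repressor of the histone methyltransferase Ezh2, came next and varied less. It took 8.54, 7.83, 9.23, 8.72, 9.62 and 6.53% of the counts, a mean of 8.41% ± 1.11 (SD, n = 6). Its 2 hairpins lie within genes of related phosphatases, Mir26a-1 in an intron of Ctdspl (chromosome 9, 119031796 to 119031885) and Mir26a-2 overlapping an exon of Ctdsp2 (chromosome 10, 126995530 to 126995613), and the mature counts do not tell them apart. miR-99a-5p, a repressor of Mtor, held 5.66% ± 1.06 (SD, n = 6), between 4.44 and 7.19%. It comes from an intron of Mir99ahg (Mir99a, chromosome 16, 77598936 to 77599000). miR-126a-3p held 5.40% ± 0.64 (SD, n = 6), between 4.83 and 6.38%. It lies in the endothelial gene Egfl7 (Mir126a, chromosome 2, 26591357 to 26591429, overlapping an annotated exon) and marks blood vessels.

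The let-7 strands, which restrain growth and are abundant in differentiated tissues, followed. let-7i-5p (Mirlet7i, chromosome 10, 122985640 to 122985724, intergenic) held 4.99% ± 0.55 (SD, n = 6), let-7f-5p held 3.31% ± 0.45, let-7c-5p held 2.92% ± 0.78 and let-7g-5p (Mirlet7g, chromosome 9, 106178840 to 106178927, in an intron of Wdr82) held 2.78% ± 0.33. miR-199a-3p and miR-199b-3p had the same count in every library and are 1 measurement at 2.10% ± 0.22 (SD, n = 6), between 1.76 and 2.33%. Reads of this sequence can come from Mir199a-1 opposite an intron of Dnm2, from Mir199a-2 in the mesenchymal transcript Dnm3os, or from Mir199b opposite an intron of Dnm1.

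The remaining 10 of the first 20 lay between 0.99 and 1.71%. They were miR-1b-5p at 1.71%, miR-181a-5p (a tuner of lymphocyte receptor signalling) at 1.65%, miR-27b-3p at 1.48%, let-7a-5p at 1.41%, miR-143-3p (a smooth muscle miRNA) at 1.31%, miR-27a-3p at 1.20%, miR-24-3p at 1.18%, let-7j at 1.16%, miR-125b-5p at 1.11% and miR-10a-5p (a Hox cluster miRNA) at 0.99%. Within this group miR-1b-5p ran from 0.91 to 2.48%, miR-181a-5p from 1.15 to 2.49% and miR-125b-5p from 0.68 to 1.64%, whereas miR-27a-3p stayed between 1.096 and 1.37%.

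**Figure D2:**
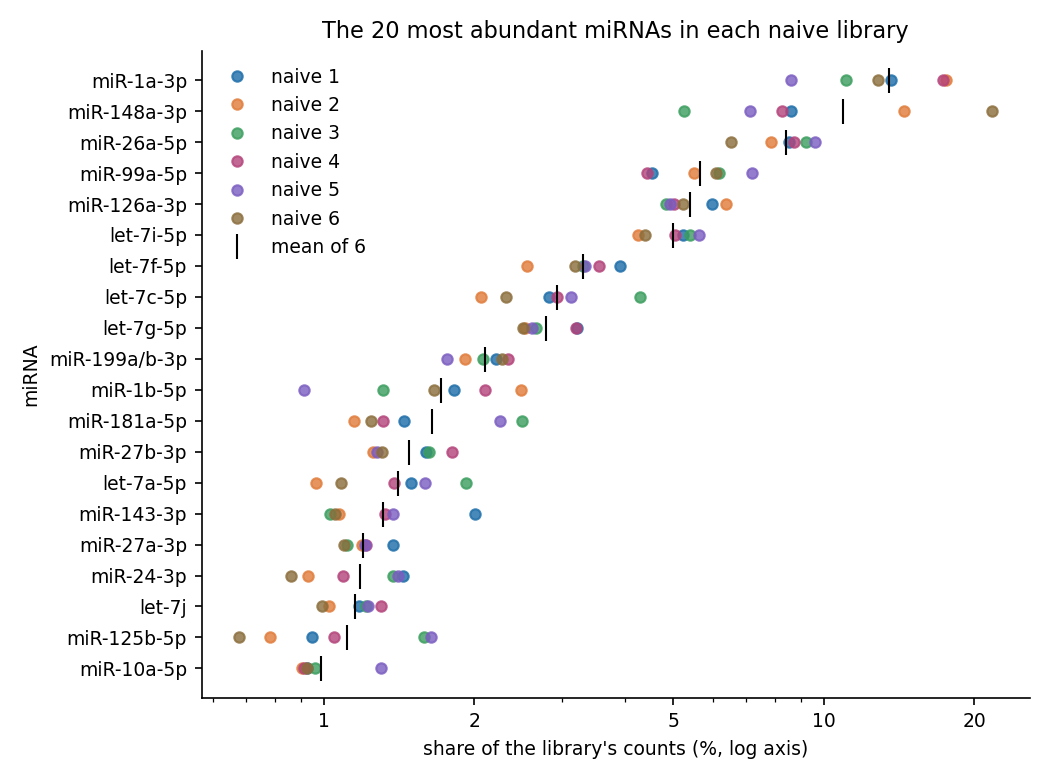
Share of the library's counts (percent, log axis) for the 20 most abundant miRNAs, with 1 point for each of the 6 naïve libraries and a black tick at their mean. miR-148a-3p spans 5.25 to 21.7%, whereas miR-27a-3p spans 1.096 to 1.37%, and most neighbouring rows overlap.

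Most neighbouring ranks changed places between libraries. The order was set by the means of the same 6 libraries, so it is given as a description, with no test. Of the 19 neighbouring pairs among the first 20 miRNAs, 3 kept their order in all 6 libraries: miR-26a-5p above miR-99a-5p, let-7i-5p above let-7f-5p, and let-7g-5p above miR-199a-3p. For these the mean log2 ratio of counts within a library was 0.58 ± 0.32, 0.60 ± 0.15 and 0.41 ± 0.15 (SD, n = 6). miR-1a-3p exceeded miR-148a-3p in 5 of 6 libraries and miR-148a-3p exceeded miR-26a-5p in 3 of 6. Of the 20 miRNAs, 15 were among the first 20 of every library, and 2 libraries shared between 16 and 19 of their own first 20.

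The tissue label was set against lists of miRNAs with known tissue origins, and the list of skeletal muscle was the most abundant. The cartilage list (miR-140 and miR-455, both arms) was present in every library, with all 4 of its miRNAs among the members. It summed to 1.116, 0.81, 0.78, 0.76, 1.01 and 0.59% of the counts in naïve replicates 1 to 6, a mean of 0.85% ± 0.19 (SD, n = 6). miR-140-5p, made from Mir140 within Wwp2 (chromosome 8, 107551244 to 107551313), gave 0.51% ± 0.13 and ranked 34th, and miR-140-3p gave 0.30% ± 0.08. miR-455-5p and miR-455-3p, from an intron of the collagen gene Col27a1, were far lower, at 0.017% ± 0.005 and 0.013% ± 0.008.

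The skeletal muscle list (miR-1a, miR-1b, miR-133a, miR-133b, miR-206, miR-208a, miR-208b and miR-499) summed to 16.03, 20.8, 13.2, 19.99, 10.1 and 14.8%, a mean of 15.8% ± 4.08 (SD, n = 6). This was between 9.93 and 26.2 times the cartilage list within a library. miR-1a-3p made up 85.4% of the list on average and miR-1b-5p 10.7%. miR-206-3p, which is confined to skeletal muscle, held 0.32% ± 0.10 and miR-133a-3p held 0.19% ± 0.04. Members of the list did not all move together. The lowest shares of miR-1a-3p and miR-1b-5p were in replicate 5, whereas those of miR-206-3p (0.147%), miR-133a-3p (0.134%) and miR-133b-3p (0.055%) were in replicate 6. In replicate 3 miR-206-3p (0.423%) and miR-133b-3p (0.089%) were at their highest, with miR-1a-3p at 11.1%. In replicate 2 miR-1a-3p, miR-1b-5p and miR-133a-3p were at their highest. Of the 14 miRNAs of the list, 7 were members, miR-206-5p and miR-133b-5p had no count in any naïve library, and miR-208a-3p had at most 1 count. Since shares sum to a fixed total, a larger muscle share lowers the shares of all other miRNAs, and its part in their spread was not tested. In pooled tissue, more cells of a type and more RNA per cell cannot be told apart.

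Markers of blood vessels were the next list. miR-126a, miR-143 and miR-145a, 6 miRNAs that were all members, summed to 6.98% ± 0.82 (SD, n = 6), of which miR-126a-3p made up 77.4%. Red cell (erythroid) miRNAs (miR-486a, miR-486b, miR-451a and miR-144) summed to 1.39% ± 0.42, from 1.04 in replicate 4 to 2.03% in replicate 3. miR-486a-5p and miR-486b-5p had identical counts and with each such set taken once the list came to 0.87% ± 0.21. miR-451a itself, the defining red cell miRNA, held 0.136% ± 0.032. The members of the list went apart in replicate 3, where miR-486a-5p was at its highest (0.879%). There miR-451a (0.087%), miR-144-5p (0.027%) and miR-144-3p (0.011%) were each at their lowest of the 6 libraries. The high sum in replicate 3 thus came from miR-486. White cell (leukocyte) miRNAs (miR-146a, miR-142a, miR-223, miR-155 and miR-150) summed to 1.02% ± 0.13, led by the inflammatory regulator miR-146a-5p at 0.42% ± 0.05 and the pan-leukocyte miR-142a-3p at 0.34% ± 0.12. The summed white cell list exceeded the cartilage list in 6 of 6 libraries, with 42.0% of the white cell list from miR-146a-5p on average. The pan-leukocyte miR-142a-3p alone was below miR-140-5p (0.51%) in the mean. The order of the 2 lists thus depends on which miRNAs they hold.

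Other tissues left little trace. The epithelial list (the miR-200 family, miR-203 and miR-205) held 0.026% ± 0.006, the islet list (miR-375 and miR-7a) 0.056% ± 0.014 and the liver list (miR-122) 0.000354% ± 0.000266, with between 1 and 9 counts of the hepatocyte strand miR-122-5p in a library. The neural list held 0.106% ± 0.034, of which miR-128-3p made up 96.4%. The defining neuronal strand miR-124-3p had no count in 10189601, which allows a share of up to 2.94e-05% (counting error only).

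**Figure D3:**
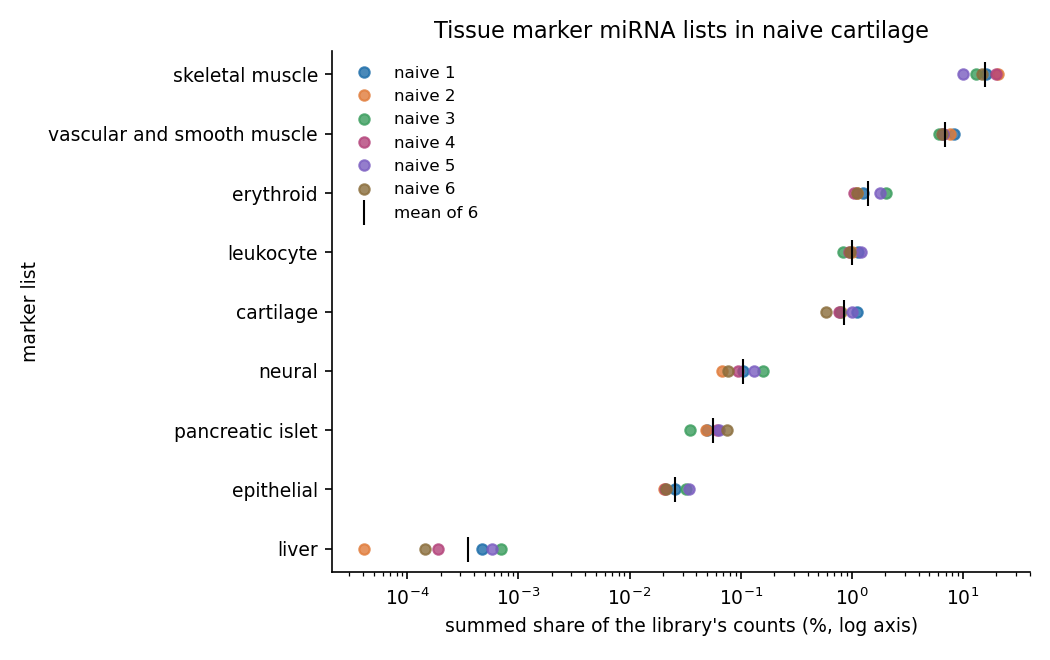
Summed share of the library's counts (percent, log axis) of the 9 tissue lists, with 1 point for each of the 6 naïve libraries and a black tick at the mean. The skeletal muscle list lies between 10.1 and 20.8% and the cartilage list between 0.59 and 1.116%, and the 2 do not overlap in any library.

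Families concentrated the counts further. By seed where a sequence was found, the 320 members fell into 252 families, of which 213 had 1 member and 5 had at least 5. These counts include members without a sequence that were kept on their own. The 10 largest held 73.4% ± 3.79 (SD, n = 6) of the counts. Of the 45 members without a RefSeq sequence, 9 were joined to a family by their name and the other 36 were kept on their own.

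The let-7 seed (GAGGUAG) led with 16.99% ± 2.46 (SD, n = 6), above any one miRNA in the mean. Its shares were 18.1, 13.4, 19.9, 17.7, 18.2 and 14.6% in replicates 1 to 6, and among its 9 members (8 let-7 strands and miR-98-5p) the highest, let-7i-5p, took 29.4% of the family. Several of them differ by 1 or 2 bases, for instance let-7a-5p from let-7c-5p and from let-7f-5p, so reads with a sequencing error can pass between them. Of the 273 members with a sequence (identical counts once), 58 lay within 2 edits of another member, and these 58 held 52.8% of the counts. let-7j differs from let-7i-5p at G8U (counted from 1 at the 5′ end) and by 2 further bases at the 3′ end, and it had between 21.7 and 25.8 counts for every 100 of let-7i-5p in the naïve libraries.

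miR-1a-3p came next at 13.5% ± 3.50 (SD, n = 6). It had no RefSeq sequence and was kept on its own, so whether it shares a seed with another member was not checked. Most other large families rested on 1 strand. The miR-148 family (CAGUGCA) held 11.2% ± 6.16 (SD, n = 6) and miR-148a-3p was 97.0% of it, against miR-148b-3p and miR-152-3p. The miR-26 family (UCAAGUA) held 8.62% ± 1.11, of which miR-26a-5p was 97.5%. The miR-99 and miR-100 family (ACCCGUA) held 6.42% ± 1.21, of which miR-99a-5p was 88.1%, followed by miR-100-5p. The miR-181 family (ACAUUCA) held 2.06% ± 0.68, with 79.9% from miR-181a-5p and most of the rest from miR-181b-5p.

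A few families were shared more evenly. The miR-30 family (GUAAACA), with 5 strands, held 2.31% ± 0.14 and was led by miR-30d-5p at 36.7% of the family, followed by miR-30c-5p. Its CV, the SD as a percentage of the mean, was 6.21%, the lowest of the 10 largest families. miR-27b-3p and miR-27a-3p (UCACAGU), regulators of fat cell formation, held 2.68% ± 0.27 together, with 55.2% from miR-27b-3p. The miR-199-3p sequence (CAGUAGU) held 4.19% ± 0.44 as deposited under both names and 2.15% when entered once.

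Hairpins nearly always had a clear leading arm. For 206 hairpins both arms were in the table and at least 1 arm was a member. The 5p arm was higher in all 6 libraries for 115 of them, the 3p arm for 77, and the leading arm differed between libraries (or was tied) for 14. The lower arm made up under 1% of both arms in 86 hairpins and over 25% in 28. Among the 68 hairpins of at least 1000 CPM (the count scaled to a common library size, with libraries scaled by TMM, the trimmed mean of M values) 67 had the same leading arm in every library, and the median SD of the 5p share was 0.14 percentage points. In total counts the arms were close, with 50.9% ± 6.55 (SD, n = 6) from strands named 5p and 46.5% ± 6.82 from strands named 3p.

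The 8 most abundant hairpins ranged from wholly one-sided to shared. The 3p arm took 99.97% of miR-1a, 99.8% of miR-148a and 99.4% of miR-126a. The 5p arm took 99.96% of miR-26a, 99.9996% of miR-99a, 99.96% of let-7i and 99.87% of let-7f. Among hairpins of at least 1000 CPM with at least 10 counts of both arms in every library, the 5 most one-sided were miR-1a, miR-26a, let-7i, let-7f and miR-27b (99.8% from the 3p arm). Of the 8, miR-199a was the most shared, with 28.5% ± 5.91 (SD, n = 6) of its counts from the 5p arm, between 23.1 and 39.1%. Its 3p count also holds reads of Mir199b.

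Of hairpins of at least 1000 CPM with at least 10 counts of both arms in every library, the 5 most balanced were miR-30e, miR-140, miR-199a, miR-223 and miR-340. The 5p arm of the cartilage miRNA miR-140 took 68.3, 63.8, 51.9, 68.2, 58.8 and 66.0% of the counts in replicates 1 to 6, a mean of 62.8% ± 6.42 (SD, n = 6), and led in every library. miR-30e (an intron of Nfyc, chromosome 4, 120772606 to 120772697) was the only hairpin of at least 1000 CPM whose leading arm differed, at 59.6, 74.7, 48.6, 67.0, 51.4 and 72.8% from the 5p arm. Replicates 3 and 5 had the lowest 5p share for both miR-140 and miR-30e. In the other cartilage hairpin, miR-455, which was below 1000 CPM, the 5p arm took 76.9, 77.9, 40.2, 60.4, 41.6 and 55.8%, so the 3p arm led in replicates 3 and 5 alone. miR-223 (21.4% ± 4.396 from the 5p arm) and miR-340 (83.1% ± 3.69) each had the same leading arm in all 6 libraries.

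**Figure D4:**
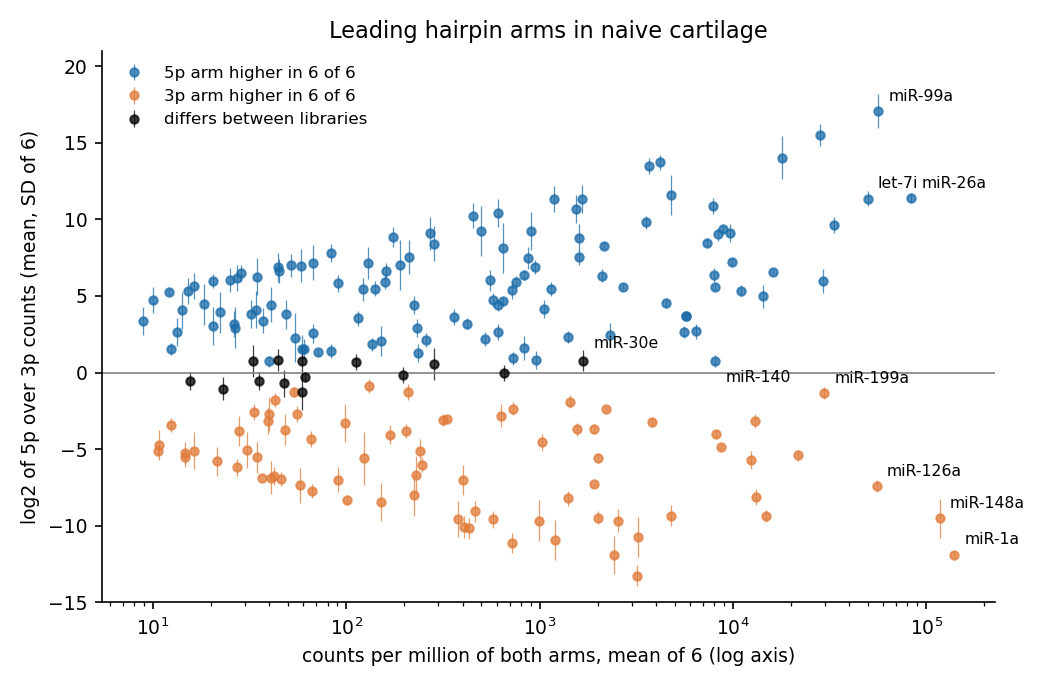
Log2 ratio of 5p to 3p counts (mean with SD over 6 naïve libraries, 0.5 added to each count) against the summed level of both arms (TMM CPM, log axis) for 206 hairpins. Blue points have the 5p arm higher in 6 of 6 libraries (115 hairpins), orange points the 3p arm (77), and black points differ between libraries (14); miR-30e is the black point furthest to the right.

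Leading strands more often began with U. In 152 hairpins with a steady leading arm and a sequence for both arms, the leading strand began with U in 56.6% and the other strand in 20.4%. In 72 hairpins only the leading strand began with U, and in 17 only the other one did. The share beginning with U was 44.7% of the 275 members with a sequence, 62.0% of the 50 most abundant of them, and 41.4% of the 909 other miRNAs of the table with a sequence. Weighted by counts, strands beginning with U held 73.4% ± 3.09 (SD, n = 6) of the reads of members with a sequence and strands beginning with G held 0.99% ± 0.13.

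Some members may not be independent of a far more abundant one, since 14 pairs of miRNAs overlapped by at least 16 bases in reverse complement, and in 8 of them both were members. The highest of these was miR-3074-5p, which ranked 38th and is the mirror of miR-24-3p. Bases 1 to 22 of each are shown because 20 of them pair.
miR-24-3p: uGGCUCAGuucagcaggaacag
miR-3074-5p: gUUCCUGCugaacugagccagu
The Mir24-1 and Mir3074-1 hairpins lie on opposite strands of chromosome 13 (63301208 to 63301275 and 63301199 to 63301283), and miR-3074-5p had 39.1, 30.4, 41.1, 39.6, 33.3 and 38.97 counts for every 100 of miR-24-3p in replicates 1 to 6. miR-1b-5p, ranked 11th, is likewise annotated opposite a miR-1a hairpin and had between 10.6 and 14.1 counts for every 100 of miR-1a-3p, while miR-1a-3p itself ran from 8.61 to 17.6% of the libraries. miR-126b-5p, opposite miR-126a-3p, had only between 0.447 and 0.689 counts for every 100. How strand was handled in the counting is not stated, so antisense transcripts and reads of the abundant strand cannot be told apart here.

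The spread between naïve libraries exceeded counting error for most members. The median CV of TMM CPM of the 314 members was 24.8%, against a median of 7.17% from counting alone, and 223 had a CV over 2 times their counting CV. Spread fell only a little with level: the median CV was 26.5% for the 142 members under 100 CPM, 25.6% for the 101 between 100 and 1000 CPM, and 20.7% for the 71 above, where counting alone would give 1.17%. In all, 105 members had a CV under 20% and 11 had a CV over 50%.

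Among members of at least 1000 CPM, the CV was highest for miR-148a-3p at 70.0%. Its CPM was 85657, 169352, 44016, 88086, 57487 and 259358 in replicates 1 to 6, a 5.89-fold range. miR-30e-5p followed at 48.4%, with 511 and 551 CPM in replicates 3 and 5 and between 923 and 1814 in the others. miR-1b-5p had a CV of 43.6%, and miR-423-3p (an intron of Nsrp1) of 43.3%, with its highest values, 2284 and 3297 CPM, in replicates 3 and 5. miR-142a-3p, the leukocyte miRNA, had a CV of 39.2% through 1 low library: 1041 CPM in replicate 3 against 3081 to 5000 in the other 5.

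The steadiest were miR-30d-5p at a CV of 5.57% (7634 to 8831 CPM), let-7i-5p at 7.30% (45269 to 53694 CPM), miR-26a-5p at 8.52% (77381 to 92865 CPM), miR-93-5p of the Mcm7 gene at 10.4% and miR-199a-5p at 10.8%. miR-30d-5p and miR-30e-5p share a seed and stood at opposite ends of the range of CV.

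**Figure D5:**
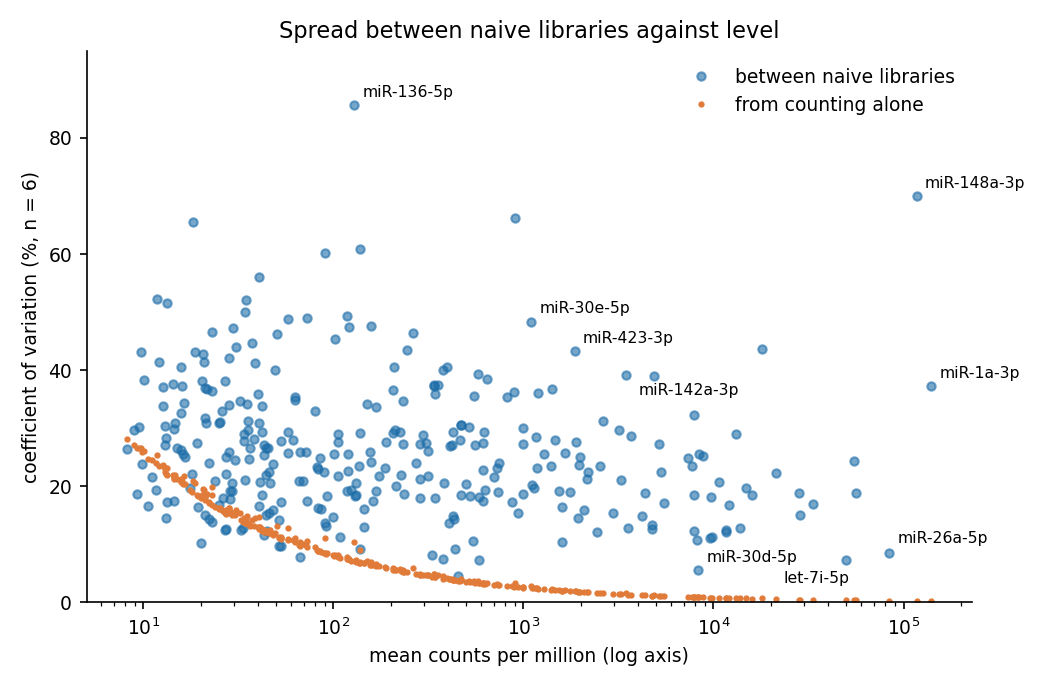
Coefficient of variation over 6 naïve libraries (percent, blue) and the part expected from counting alone (percent, orange) against mean TMM CPM (log axis) for 314 members. The blue points lie mostly between 10 and 50% at every level, with miR-148a-3p at 70.0% and miR-30d-5p at 5.57%, while the orange points fall towards 0.

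Replicates 3 and 5, the 2 shallowest libraries with 1284839 and 864123 counts, stood apart from the other 4. Of 314 members, replicate 3 had the lowest CPM for 89 and the highest for 59, and replicate 5 the highest for 81 and the lowest for 50. Across the 273 members with a sequence (identical counts once), the deviation of log2 CPM from the mean of the 6 rose with the GC content of the miRNA in these libraries (Spearman's rho 0.55 in replicate 3 and 0.41 in replicate 5) and fell with it in the other 4 (between -0.42 and -0.29). The deviations of a miRNA cancel over the 6 libraries, so a fall in some follows in part from a rise in others. These are correlations across miRNAs of 1 library, given as descriptions. TMM factors were 1.19 and 1.24 in replicates 3 and 5 and between 0.84 and 1.01 in the others. The part of depth or base composition in the spread was not tested. Without replicate 3 the median CV was 22.1%.

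Among strands made from 1 place, members of neighbouring hairpins differed in level. A hairpin position in GENCODE was found for 301 members, and 28 groups of 2 or more hairpins within 10000 bases on 1 strand held 124 members that come from 1 such place. The 3 groups of largest share were led by 1 strand each: miR-99a-5p beside let-7c-1-3p (5.66% ± 1.06), miR-27b-3p in the Mir23b to Mir24-1 group of chromosome 13 (1.63% ± 0.26) and miR-27a-3p in the Mir23a to Mir24-2 group of chromosome 8 (1.61% ± 0.14). Strands made from several places, such as miR-24-3p and let-7c-5p, were left out of these sums. The lead of miR-99a-5p in its group thus leaves out the 5p arm of the let-7c hairpin beside it, and does not compare the 2 hairpins as wholes. The imprinted cluster from Mir379 to Mir410 (chromosome 12, 109709060 to 109743795) had 20 members but held only 0.247% ± 0.049 (SD, n = 6), and the Sfmbt2 cluster of chromosome 2, with 10 members, held 0.025% ± 0.004. The group of Mir144 and Mir451a on chromosome 11, a red cell locus, held 0.208% ± 0.047.

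The landscape of naïve cartilage was then set against the other 4 groups, which share the naïve libraries as their control. Of the 10 most abundant naïve miRNAs, 10 were among the first 10 in day 1 contralateral, day 1 injured and day 7 injured cartilage, and 9 in day 7 contralateral cartilage. Of the 20, between 17 and 19 were among the first 20. In exact permutation tests over libraries, two-sided, of 5 measures in 4 groups (20 tests in all), no difference from naïve passed the threshold. The 4 tests of the leaders' share used the naïve libraries that chose the leaders, so nothing is drawn from them and that share is given as values only. They stay among the 20 tests over which p-values were adjusted. The smallest p was 0.143 and the smallest that 6 against 3 libraries allow is 0.0238, and adjusted p-values were at least 0.977. The share of the 10 naïve leaders was 59.98% ± 5.44 in naïve (n = 6) and 59.8% ± 0.64 in day 7 injured cartilage (n = 3). The skeletal muscle share was 15.8% ± 4.08 in naïve, 11.3% ± 3.32 in day 7 injured and 20.1% ± 7.78 in day 7 contralateral cartilage. The cartilage list was 0.85% ± 0.19 in naïve and 0.84% ± 0.17 in day 7 injured cartilage. The effective number was 37.2 ± 7.26 in naïve and 36.7 ± 0.96 in day 7 injured cartilage. A p above the threshold does not show that these values are the same. Per the study's scheme, pools at day 7 held 4 mice because part of the cartilage was lost. The labels do not give the size of the naïve pools, so the SDs of the groups may not compare like with like.

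For single miRNAs, limma-voom with Benjamini-Hochberg adjustment called none of the 320 members against naïve in day 1 contralateral, day 1 injured or day 7 contralateral cartilage (0% of the 428 miRNAs tested in each). Without adjustment 0, 3 and 16 members had p under 0.05 in these groups. edgeR's quasi-likelihood test also called 0 in each, and DESeq2 called 1 in day 7 contralateral cartilage, miR-199b-5p, which was higher and is named after its value was seen. In day 7 injured cartilage 56 members (17.5%) were called, against 18.2% of all 428 tested. Of these 40 were higher (14.5% of all tested were higher) and 16 lower (3.74% of all tested were lower). The median log2 difference was -0.05 over members and -0.0028 over all tested. All 320 members were among the 428 tested. The 16 miRNAs called lower were all members, and 22 of the 62 called higher were not members. Those 22 fell short of the minimum in a naïve library, so the direction of these calls is bound to how members were chosen.

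Of the 20 most abundant naïve miRNAs, 4 were called in day 7 injured cartilage, which is 20% and close to the 18.2% of all 428 tested. The skeletal muscle list was lower there in its mean (11.3% against 15.8%), and its part in these calls was not tested. The miR-199a/b-3p sequence had naïve shares of 1.76 to 2.33% (median 2.15) and was at 3.98, 4.54 and 4.42% in the injured libraries, with no overlap. It was 2.27-fold higher (log2 1.19 ± 0.26 SE, limma-voom adjusted p = 0.00201). let-7i-5p went from 4.25 to 5.63% (median 5.13) in naïve to 7.05, 6.12 and 7.16%, again without overlap, which was 1.497-fold (log2 0.58 ± 0.16 SE, limma-voom adjusted p = 0.0118). This call did not hold when only library totals set the scale (limma-voom adjusted p = 0.212) or when every miRNA of at least 1 count entered the fit (limma-voom adjusted p = 0.0536). miR-27b-3p lay between 1.25 and 1.80% in naïve and at 2.01, 2.28 and 2.09% in injured libraries, 1.60-fold higher (log2 0.68 ± 0.20 SE, limma-voom adjusted p = 0.0196). The only one of the 4 that fell was miR-181a-5p. It lay between 1.15 and 2.49% in naïve, highest in replicates 3 and 5, and at 0.97, 0.94 and 0.65% in injured libraries (log2 -0.78 ± 0.22 SE, limma-voom adjusted p = 0.0154).

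At the lower edge of the landscape, 9 miRNAs had exactly 10 counts in their lowest naïve library: miR-129-5p, miR-34b-3p, miR-31-5p, miR-34a-5p, miR-330-3p, miR-139-3p, miR-425-3p, miR-744-3p and miR-467e-5p. Their highest counts ran from 16 for miR-31-5p to 45 for miR-34a-5p, a p53 target. Just outside, with 9 counts in their lowest library, were miR-133a-5p, miR-329-5p, miR-147-5p, miR-1983 and miR-7667-5p, whose highest counts lay between 27 and 34.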

How the data were processed

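Small RNA libraries (NEBNext kit) were made by the authors from RNA of pooled femoral condyle cartilage. Per the labels, the processing used FastQC 0.11.9, Trim Galore 0.6.6 for trimming, Bowtie 1.3.0 for alignment and SAMtools 1.12, and the study names the nf-core pipeline for small RNA with miRBase mature sequences and GRCm38. The authors deposited raw counts per mature miRNA and library, without normalisation, in 1 table. How reads that match several sequences, or the opposite strand, were counted is not stated. Table rows were matched to samples by library number, groups were taken from the treatment label, and replicates were numbered in accession order, which pairs no libraries.

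Shares are percentages of a library's deposited counts. CPM used TMM sizes computed over the naïve libraries alone (edgeR 4.0.16). Groups were compared with limma 3.58.1 (voom) in R 4.3.3 on all 18 libraries and the 428 miRNAs kept by filterByExpr, and 4 contrasts were adjusted separately. DESeq2 1.42.0 and edgeR's quasi-likelihood test were alternatives. The study's own fit accounted for samples from the same mouse pool. The pools of mice are not labelled, so libraries were treated as independent here although naïve libraries share mice under the study's scheme. SDs, CVs and p-values measure only the spread between these libraries, not between mice. Totals between 864123 and 2450093 counts limit the precision of low members, and PCR copies are not independent molecules. Procedures were tested on simulated data. Seeds and sequences came from RefSeq (275 of 320 members matched), positions and host genes from GENCODE for GRCm38. Permutation tests used SciPy and figures matplotlib 3.10.9.

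The members, marker lists and tests were chosen with earlier results of these data known. Named were the 20 most abundant miRNAs, members of the marker lists, the 5 highest and 5 lowest CVs at or above 1000 CPM, the 8 most abundant, 5 most balanced and 5 most one-sided hairpins and any at or above 1000 CPM whose leading arm differed, the leading 2 members of the 10 largest families, calls among the first 20, and the miRNAs at the limit of 10 counts. The reverse-complement pairs and the genomic groups were named after their values were seen.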

Additional observations from a re-analysis of the deposited data

Results flagged for a closer look

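Of 99 naïve values compared for a library far from the other 5 (a gap above 0.625 of the whole range), 3 were flagged. That limit flags about 1 group in 20 where values are independent and normally distributed. The values here are linked, since shares sum to a fixed total, so the number that chance would flag is not known. Nothing is concluded from the number of flags. miR-143-3p held 2.01% of the counts in replicate 1, and the next highest library had 1.38%. miR-10a-5p held 1.303% in replicate 5, and the next highest had 0.96%. The 5p share of miR-99a was 99.9975% in replicate 3 and rounded to 100% in the other 5, a gap that rests on a few counts of the 3p arm.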

How the results depend on the processing

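The members came to 496 with a minimum of 1 count in every naïve library and to 206 with a minimum of 50 counts, against 320 at 10 counts. Of hairpins with both arms as members, 76 of 86 had one leading arm in every library, against 192 of 206, where fewer hairpins enter. With identical sets entered once the erythroid list was at 0.867%. The median CV was 29.4% with library totals only and 20.7% in members of at least 1000 CPM. Members called in day 7 contralateral cartilage went from 0 to 1 with DESeq2. With the muscle list left out of the totals, the difference of the 10 leaders in day 7 injured cartilage turned from -0.23 to 1.28 percentage points; the cause was not tested. That setting, by its construction, also raised the let-7 family to 20.2%.

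Leaving out each naïve library in turn gave 321 to 327 members, a share of the 10 leaders of 58.6 to 61.2%, 193 to 198 hairpins with a steady arm, a median CV of 22.1 to 25.8%, a muscle list of 14.8 to 16.95%, a cartilage list of 0.79 to 0.90% and 52 to 56 calls in day 7 injured cartilage. The other settings gave 44 to 60 calls there. No paired analysis was possible because the labels number no replicates and do not say which libraries share mice. Medians in place of means for the leaders, the restriction of the CV to 1000 CPM and the exclusion of reverse-complement partners (181 of 192 hairpins with a steady arm) were chosen after seeing the data. For members under 100 CPM the median counting CV was 15.3%, which limits how far their order is resolved at this depth.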
